A study of Danio rerio with 4 samples.

Results

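Fibroblast growth factor (FGF) signalling was described here through 51 zebrafish genes out of 28290 gene models in the count table. They were chosen by name: every gene whose symbol begins with fgf and a digit, the FGF receptors and FGFRL1 genes, the Sprouty and Spred genes, DUSP6, IL17RD, ETV4 and both ETV5 genes. They comprise 22 paracrine ligands, 3 endocrine ligands, 7 FGF homologous factors, 5 receptors, 2 FGFRL1 genes, 9 feedback inhibitors and 3 ETS factors. Symbols are printed as the gene tables give them, and gene copies that share a symbol are told apart by their Ensembl identifier, since the tables give them no letter.

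Poly-A RNA was measured in whole wild-type embryos of 2 groups. One group was exposed to SYP-3343, a compound known in the labels by its code name, at 8 µg/L from 3 to 24 hours post fertilisation (2 libraries), and the other was the untreated control (2 libraries). The labels call the libraries of a group biological replicates without naming a clutch or tank, and p-values here cover the spread among these libraries, which may be technical. The design names 40 exposed embryos and leaves unsaid if they made up one library or all of a group.

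FGF ligands are secreted proteins that bind receptor tyrosine kinases together with heparan sulfate and activate the RAS-MAPK cascade. The cascade switches on the ETS factors and, with them, its own inhibitors (Sprouty and Spred proteins, the ERK phosphatase DUSP6 and the membrane protein IL17RD, also called Sef), so that the level of these transcripts is widely used as a readout of FGF activity. In the zebrafish embryo FGFs pattern the midbrain-hindbrain boundary, ear, tailbud, pharyngeal pouches and fin buds. FGF homologous factors are named for their sequence but stay inside the cell, where they bind voltage-gated sodium channels.

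The libraries held 49075203 and 49962016 counts in SYP-3343 replicates 1 and 2, against 46165614 and 59054470 in control replicates 1 and 2. A gene with no reads may still hold as many as 3, which is 0.0663 and 0.0699 CPM (counts scaled to a fixed library total) in the SYP-3343 libraries and 0.0587 and 0.0447 CPM in the controls. These limits include counting error and no other error. Correlations of log2 CPM across genes (genes do not replicate each other) were 0.997 within the SYP-3343 pair, 0.996 within the control pair, and 0.984 to 0.985 between groups. Levels below are CPM scaled by TMM, and fold changes are log2 values of SYP-3343 minus control with their standard error (SE). The words rose and fell are kept for genes whose adjusted p in edgeR's quasi-likelihood test, corrected by Benjamini-Hochberg over the 22647 genes tested, was under 0.05. In whole embryos, fewer cells of a type and less RNA per cell cannot be told apart.

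Most FGF genes did not pass the test. Of the 49 members with enough counts to be tested, 7 rose and 2 fell, and 40 did not pass. The 18.4% of members called compares with 31.9% of all genes tested. By direction, 14.3% of members rose against 16.6% of all genes, and 4.08% fell against 15.3% of all genes. Both SYP-3343 libraries lay above both controls for 18 members (32.2% of all genes did so) and below both for 16 (33.7% of all genes). The median log2 fold change was 0.03 over the members and -0.01 over all genes, with members between -1.43 and 0.79. limma-voom called the same 9 genes, and DESeq2 called 4 of them, fgfr4, DUSP6, fgf11b and FGFR1 copy ENSDARG00000011190. No endocrine, FGF1 subfamily, FGFRL1, Sprouty, Spred or ETS gene passed with any of these 3 tools, and none of them had an unadjusted p under 0.05 in edgeR. Leaving out SYP-3343 replicate 1 left 3 members higher and none lower, and leaving out SYP-3343 replicate 2 left 4 higher and 2 lower. Without control replicate 1 the counts were 7 higher and 3 lower, and without control replicate 2 they were 5 higher and 1 lower.

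**Figure D1:**
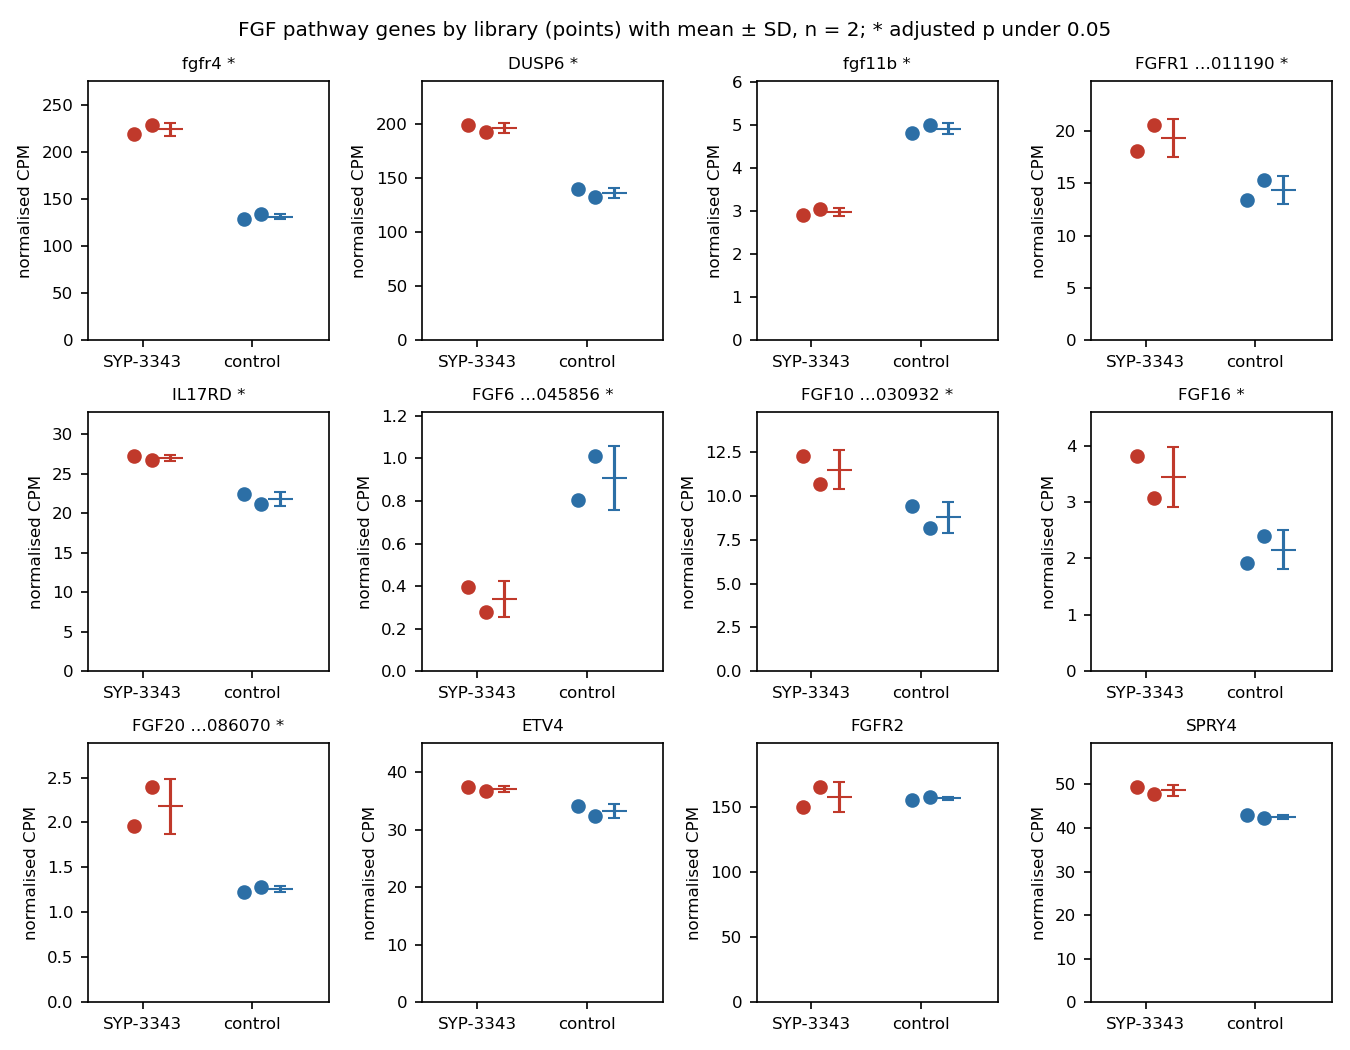
Normalised CPM of the 9 FGF genes that passed the test (marked with an asterisk) and of ETV4, FGFR2 and SPRY4, which did not, in the 2 SYP-3343 libraries and then the 2 control libraries. Points are libraries, the bars beside them are means ± SD (n = 2), and copies are shown with the last digits of their identifier. For each of the 9 genes called, the SYP-3343 points lie wholly on one side of the control points. Of all genes tested, 32.2% lie wholly above and 33.7% wholly below. The 9 genes were picked by the test on these same libraries, so this is no separate support.

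Among the secreted ligands, 2 of the 3 FGF9 subfamily genes tested rose (66.7%, against 16.6% of all genes). FGF16, which is expressed in the ridge of the zebrafish pectoral fin bud, was at 3.82 and 3.07 CPM in SYP-3343 embryos, against 1.92 and 2.40 CPM in controls. It rose 1.58-fold (log2 fold change 0.66 ± 0.24 SE, adjusted p = 0.0383). The FGF20 copy ENSDARG00000086070 was at 1.97 and 2.40 CPM in SYP-3343 embryos, against 1.23 and 1.28 CPM in controls, and rose 1.73-fold (0.79 ± 0.29, adjusted p = 0.0422). For both genes both SYP-3343 libraries lay above both controls, as they did for 32.2% of all genes.

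The other FGF20 copy, ENSDARG00000007356, had the same order of libraries but missed the threshold. It was at 3.09 and 3.10 CPM in SYP-3343 embryos and 1.72 and 2.52 CPM in controls (log2 fold change 0.52 ± 0.25, adjusted p = 0.120). The 2 FGF20 copies took like shares of their joint counts in both groups, with 41.3% ± 3.4 for ENSDARG00000086070 in SYP-3343 and 37.7% ± 5.7 in control libraries (SD, n = 2 each; exact permutation p = 0.667, two-sided, where the smallest p of 2 against 2 is 0.333). The fourth gene of the subfamily, fgf9, had 5 and 3 counts in the SYP-3343 libraries and 0 in both controls. At that depth it was not tested. FGF16 was not called without SYP-3343 replicate 1 (adjusted p = 0.268) or control replicate 1 (adjusted p = 0.149), and the called FGF20 copy missed the threshold when any single library was left out (adjusted p = 0.0518 to 0.240). Both also missed it with upper-quartile factors (adjusted p = 0.0607 and 0.0612) and with library size alone (0.294 and 0.207). FGF20 copy ENSDARG00000007356 passed without control replicate 2 (0.85, adjusted p = 0.0420).

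In the FGF7 subfamily, FGF10 copy ENSDARG00000030932 rose. FGF10 carries the signal from the fin and limb bud mesenchyme to the overlying ectoderm. This copy was at 12.3 and 10.7 CPM in SYP-3343 embryos, against 9.41 and 8.16 CPM in controls, a 1.31-fold difference with no overlap (log2 fold change 0.39 ± 0.14, adjusted p = 0.0342). It was not called without SYP-3343 replicate 1 (adjusted p = 0.274) or control replicate 2 (adjusted p = 0.190), nor with upper-quartile factors (adjusted p = 0.0767) or library size alone (0.06, adjusted p = 0.760).

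The second FGF10 copy, ENSDARG00000100475, was scarce and scattered. It was at 1.04 and 1.23 CPM in SYP-3343 embryos and at 1.35 and 0.432 CPM in controls, so that the 2 control libraries lay on both sides of the SYP-3343 pair (log2 fold change 0.44 ± 0.44, adjusted p = 0.482). Without control replicate 1 it passed (1.39, adjusted p = 0.0377). FGF3, which acts with FGF8 in inducing the ear and patterning the hindbrain, was at 7.07 and 7.64 CPM in SYP-3343 embryos and 6.96 and 6.74 CPM in controls (log2 fold change 0.10 ± 0.15, adjusted p = 0.653). The remaining members were fgf7, the keratinocyte growth factor in mammals, with a log2 fold change of -1.09 ± 0.57 (adjusted p = 0.154), and FGF22 with -0.14 ± 0.48 (adjusted p = 0.856).

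None of the 6 genes of the FGF8 subfamily passed edgeR's test, which 31.9% of all genes tested passed. The groups overlapped for 3 of the 6, as they did for 7710 of the 22647 genes tested. FGF8 copy ENSDARG00000003399, the more abundant of 2 genes for this organiser signal of the midbrain-hindbrain boundary, was at 8.46 and 9.29 CPM in SYP-3343 embryos and 7.96 and 5.85 CPM in controls. Both SYP-3343 libraries were above both controls, with a log2 fold change of 0.38 ± 0.16 (adjusted p = 0.0823). Control replicate 1 decides this gene's call: without it the log2 fold change was 0.60 and the adjusted p 0.00746, while without control replicate 2 it was 0.16 with an adjusted p of 0.565.

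FGF8 copy ENSDARG00000039615 had the opposite sign and did not pass, at 1.17 and 0.862 CPM in SYP-3343 embryos and 1.49 and 1.41 CPM in controls (log2 fold change -0.50 ± 0.34, adjusted p = 0.276). This copy took 12.2% and 8.49% of the counts of the pair in SYP-3343 libraries and 15.7% and 19.5% in control libraries. The exact binomial 95% intervals, for counting error only, were 9.24 to 15.6% and 6.05 to 11.5% in SYP-3343 libraries. In controls they were 12.6 to 19.3% and 16.0 to 23.3%. The shares themselves do not overlap between groups, but the intervals of SYP-3343 replicate 1 and control replicate 1 do. The share needs no scaling between libraries, and the exact permutation test gave p = 0.333, the smallest that 2 against 2 allows. fgf24, which acts in the early fin bud of zebrafish, was at 8.02 and 7.99 CPM in SYP-3343 embryos and 6.38 and 5.89 CPM in controls (0.39 ± 0.15, adjusted p = 0.0574). It was close to the threshold and was called in none of the alternatives tried, where its adjusted p ran from 0.0524 to 0.808.

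The other members of the subfamily, fgf17 (log2 fold change 0.16 ± 0.39) and the FGF18 copies ENSDARG00000043962 (0.21 ± 0.26) and ENSDARG00000088048 (-0.20 ± 0.23), had overlapping groups and adjusted p-values of 0.536 to 0.790. At an unadjusted p under 0.05, 2 genes of the subfamily, fgf24 and FGF8 copy ENSDARG00000003399, passed.

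Markers of the boundary where FGF8 is made were higher in the same libraries. Of 8 midbrain-hindbrain boundary markers, 5 rose and none fell (62.5% higher, against 16.6% of all genes), with a median log2 fold change of 0.40, while upper-quartile factors called 2 higher and library size alone called none higher and 1 lower. GBX2, a hindbrain factor at the boundary that was listed with the FGF-responsive genes, fell (-0.55 ± 0.10, adjusted p = 0.000244). Their summed level was 118.4 and 117.2 CPM in SYP-3343 embryos and 95.8 and 99.0 CPM in controls, and none was at 0 in any library. WNT1, the boundary's midbrain signal, was at 4.81 and 3.66 CPM in SYP-3343 embryos and 2.01 and 2.41 CPM in controls (log2 fold change 0.93 ± 0.23, adjusted p = 0.00367).

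PAX8, a factor of the boundary and the early ear, was 1.56-fold higher in SYP-3343 embryos (0.64 ± 0.12, adjusted p = 0.000309). Both EN2 copies, which specify the boundary, and PAX2 copy ENSDARG00000032578 rose by log2 fold changes of 0.36 to 0.43. The other PAX2 copy, ENSDARG00000028148, had the higher CPM of the pair, overlapped and did not pass. It was at 48.8 and 50.2 CPM in SYP-3343 embryos and 47.1 and 49.4 CPM in controls (0.04 ± 0.091, adjusted p = 0.798). PAX5 (0.48 ± 0.25, adjusted p = 0.151) and WNT10B (0.30 ± 0.23, adjusted p = 0.350) did not pass either. Of 15 fin bud and otic markers, 3 rose and 2 fell (20% and 13.3%, against 16.6% and 15.3% of all genes), with a median of 0.04. Their summed level was 1272 and 1233 CPM in SYP-3343 embryos and 1566 and 1336 CPM in controls. Most of that sum came from and1 and and2, with 850.7 and 819.6 CPM in SYP-3343 embryos and 1152 and 939.1 CPM in controls, while the other 13 markers summed to 421.5 and 413.6 CPM in SYP-3343 embryos and 413.7 and 396.4 CPM in controls. Both PAX2 copies are on the boundary list and on the fin bud and otic list, since pax2a and pax2b each matched both. The boundary list named pax2a alone and the fin bud and otic list pax2b alone, and which copy is which could not be told. PAX2 copy ENSDARG00000032578 is thus counted as risen in both lists, and is among the 5 boundary markers that rose. Of 11 tailbud and presomitic markers tested, 2 rose (18.2%, against 16.6% of all genes). Both were HES6 copies (0.98 ± 0.11 and 0.50 ± 0.096). The summed level of the list was 130.5 and 133.9 CPM in SYP-3343 embryos and 84.0 and 95.5 CPM in controls. Without the HES6 copies it was 22.8 and 19.3 CPM in SYP-3343 embryos and 16.2 and 18.9 CPM in controls. In the tailbud list her1 was at 0 in 3 libraries and had 7 counts in SYP-3343 replicate 1. The part of these cell populations in the ligand values was not tested.

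The 4 genes of the FGF4 subfamily all had log2 fold changes below 0, as had 11611 of the 22647 genes tested. Of the 4 genes 1 fell (15.3% of all genes fell). FGF6 copy ENSDARG00000045856, whose mammalian counterpart is expressed in skeletal muscle, had 18 and 12 counts in SYP-3343 libraries and 41 and 68 in controls. That is 0.398 and 0.279 CPM in SYP-3343 embryos and 0.802 and 1.01 CPM in controls, a 2.69-fold lower level in SYP-3343 embryos (log2 fold change -1.43 ± 0.48, adjusted p = 0.0269). The groups did not overlap, but the gene was among the scarcest tested and was not called without SYP-3343 replicate 1 (adjusted p = 0.0526), SYP-3343 replicate 2 (adjusted p = 0.146) or control replicate 2 (adjusted p = 0.142).

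Its partner copy ENSDARG00000009351 was at 2.74 and 2.096 CPM in SYP-3343 embryos and 2.93 and 3.13 CPM in controls (log2 fold change -0.33 ± 0.24, adjusted p = 0.321). The fallen copy took 12.2% ± 0.64 of the counts of both FGF6 copies in SYP-3343 libraries and 23.0% ± 2.1 in controls (SD, n = 2 each; exact permutation p = 0.333, the smallest possible). FGF4, a tailbud and limb ridge ligand, was at 3.62 and 5.84 CPM in SYP-3343 embryos and 6.26 and 6.16 CPM in controls (-0.40 ± 0.20, adjusted p = 0.131). SYP-3343 replicate 1 lay well below the other 3 libraries: without it the log2 fold change was -0.08 (adjusted p = 0.834), and without SYP-3343 replicate 2 it was -0.78 (adjusted p = 0.0113). FGF5, known in mammals as a brake on hair growth, gave -0.44 ± 0.61 (adjusted p = 0.633) and overlapped.

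The FGF1 subfamily, which holds the acidic and basic FGFs that lack a usual secretion signal, gave no call. fgf1a was at 0.663 and 0.512 CPM in SYP-3343 embryos and 1.11 and 0.997 CPM in controls (log2 fold change -0.83 ± 0.41, adjusted p = 0.128), with no overlap. fgf1b (0.34 ± 0.35, adjusted p = 0.496) and fgf2 (-0.08 ± 0.25, adjusted p = 0.847) did not pass either.

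The endocrine FGFs, which act through klotho co-receptors, had few reads. fgf21, a hormone that in mammals is released under metabolic and mitochondrial stress, had 10 and 7 counts in SYP-3343 libraries and 12 and 19 in controls. Its log2 fold change was -0.44 ± 0.69 with a 95% interval of -1.87 to 1.00 (adjusted p = 0.671). Log2 fold changes inside that interval, in either direction, are compatible with these counts.

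FGF19, which acts in forebrain and lens development in zebrafish, had 23 and 22 counts in SYP-3343 libraries and 23 and 36 in controls (0.03 ± 0.48, 95% interval -0.98 to 1.04, adjusted p = 0.970). fgf23, the phosphate hormone, had 3 and 5 counts in SYP-3343 libraries and 4 and 14 in controls and was not tested. The co-receptors klb (0.50 ± 0.24, adjusted p = 0.118) and KL (-0.70 ± 0.29, adjusted p = 0.0670) did not pass the test, and were chosen for mention after their values were seen.

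**Figure D2:**
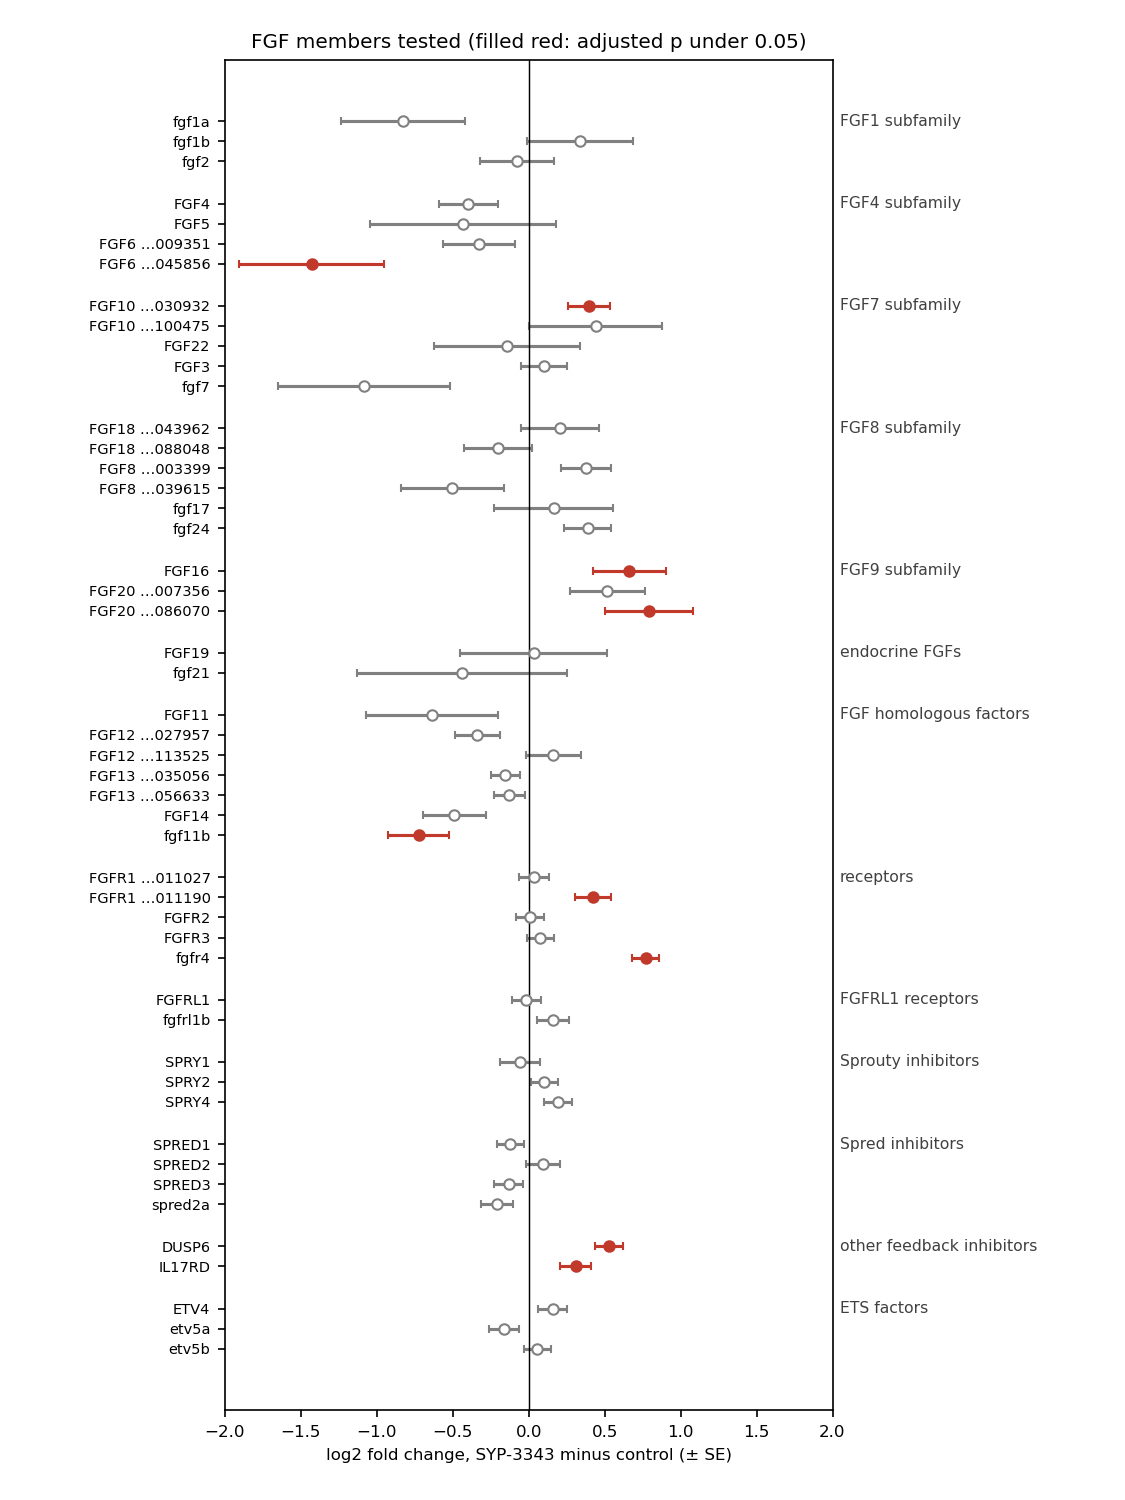
Log2 fold change (SYP-3343 minus control) with its SE for the 49 FGF members tested, grouped by role. Filled red points passed an adjusted p of 0.05: 7 lie above 0 and 2 below, while 40 open points did not pass. Scaled by library size alone, IL17RD lies at -0.02.

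FGF homologous factors lay mostly below 0. Of the 7 genes, 6 had a log2 fold change below 0, as had 11611 of the 22647 genes tested. Both SYP-3343 libraries lay below both controls for 5 of the 7 genes (33.7% of all genes did so). The median was -0.34, but only fgf11b fell (15.3% of all genes fell). fgf11b was at 2.92 and 3.05 CPM in SYP-3343 embryos, against 4.83 and 5.02 CPM in controls. It was 1.65-fold lower in SYP-3343 embryos (log2 fold change -0.73 ± 0.20, adjusted p = 0.00785), with no overlap, and reached an adjusted p of 0.0506 without SYP-3343 replicate 1.

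FGF14, linked in humans to a spinocerebellar ataxia, was at 3.36 and 3.14 CPM in SYP-3343 embryos and 3.93 and 5.11 CPM in controls (-0.49 ± 0.21, adjusted p = 0.0788). FGF12 copy ENSDARG00000027957 was at 7.51 and 6.40 CPM in SYP-3343 embryos and 8.96 and 8.68 CPM in controls (-0.34 ± 0.15, adjusted p = 0.0893). Neither overlapped, and neither passed, although both did with upper-quartile factors (adjusted p = 0.0430 and 0.0393). FGF14 also passed without control replicate 1 (-0.65, adjusted p = 0.0276).

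The 2 FGF13 copies were the most abundant homologous factors by CPM, a scale that does not correct for gene length. ENSDARG00000035056 was at 35.8 and 39.4 CPM in SYP-3343 embryos and 43.7 and 39.95 CPM in controls (-0.15 ± 0.097, adjusted p = 0.245), and ENSDARG00000056633 was at 31.8 and 33.6 CPM in SYP-3343 embryos and 38.4 and 33.1 CPM in controls (-0.13 ± 0.10, adjusted p = 0.362). FGF11 gave -0.64 ± 0.44 (adjusted p = 0.289). FGF12 copy ENSDARG00000113525, at 0.16 ± 0.18 (adjusted p = 0.531), was the exception above 0, and scaling by library size alone put it at -0.17.

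These factors are neuronal genes, and early neuron markers were lower in the same libraries. Of 20 such markers, 12 fell (60%, against 15.3% of all genes) and 1, ELAVL3, rose (0.36 ± 0.13). The share that rose was 5%, against 16.6% of all genes, and the median was -0.35. Their summed level was 2513 and 2703 CPM in SYP-3343 embryos and 3438 and 3336 CPM in controls. None of the 20 was at 0. The list named stmn1b, stmn2a, inab and isl2a, but each symbol matched both copies of its gene, and both are counted. Which copy was meant could not be told. Among these copies STMN1 copy ENSDARG00000004169, STMN2 copy ENSDARG00000033234 and ISL2 copy ENSDARG00000053499 fell, and the others did not pass. tubb5, a neuronal tubulin gene, was 1.86-fold lower in SYP-3343 embryos (-0.89 ± 0.11, adjusted p = 2.76e-06), and SNAP25 copy ENSDARG00000058117, a synaptic vesicle fusion protein, 1.68-fold lower (-0.75 ± 0.11, adjusted p = 1.26e-05). ISL1 (-0.50 ± 0.090) and ISL2 copy ENSDARG00000053499 (-0.55 ± 0.10), markers of motor and sensory neurons, also fell. The other ISL2 copy, ENSDARG00000003971, had the higher CPM of the pair, overlapped and did not pass (-0.09 ± 0.099, adjusted p = 0.548). It was 1 of 7 markers that did not pass, with nefma, nefmb, both INA copies, STMN1 copy ENSDARG00000033655 and STMN2 copy ENSDARG00000070537. Their log2 fold changes ran from -0.25 to 0.20. The part of the number of neurons in the levels of the homologous factors was not tested.

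Among the receptors, fgfr4 showed the smallest adjusted p of all FGF genes. It was at 219.6 and 229.4 CPM in SYP-3343 embryos, against 129.5 and 133.9 CPM in controls, or 9945 and 9852 reads in SYP-3343 libraries and 6620 and 8998 in controls. The groups lay far apart relative to the gap between replicates. fgfr4 rose 1.70-fold (log2 fold change 0.77 ± 0.091, 95% interval 0.58 to 0.96, adjusted p = 1.20e-06), and it passed under each of the 14 alternatives tried, with log2 fold changes of 0.43 to 0.80.

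FGFR1 copy ENSDARG00000011190 also rose. It was at 18.1 and 20.6 CPM in SYP-3343 embryos, against 13.4 and 15.3 CPM in controls, 1.34-fold higher in SYP-3343 embryos (0.42 ± 0.12, adjusted p = 0.00880). It was not called without SYP-3343 replicate 2 (adjusted p = 0.130) or with library size alone (0.09, adjusted p = 0.607). The more abundant FGFR1 copy, ENSDARG00000011027, was at 40.7 and 38.7 CPM in SYP-3343 embryos and 36.5 and 40.9 CPM in controls, with overlapping groups (0.04 ± 0.097, 95% interval -0.17 to 0.24, adjusted p = 0.816).

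FGFR2 was at 149.6 and 165.4 CPM in SYP-3343 embryos and 155.4 and 157.3 CPM in controls, so that the control pair fell between the SYP-3343 libraries (0.01 ± 0.092, 95% interval -0.18 to 0.20, adjusted p = 0.950). FGFR3, which restrains bone growth in mammals, was at 66.4 and 66.7 CPM in SYP-3343 embryos and 61.8 and 64.3 CPM in controls (0.08 ± 0.089, adjusted p = 0.556). The 95% intervals of these 3 receptors end at 0.24, 0.20 and 0.26, all below the lower end of the interval of fgfr4.

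Shares within the receptor family show the same contrast without any scaling between libraries. fgfr4 supplied 44.4% (exact Clopper-Pearson 95% interval 43.8 to 45.1%) and 44.1% (43.4 to 44.7%) of the reads of the 5 receptor genes in SYP-3343 libraries, against 32.7% (32.0 to 33.3%) and 32.5% (32.0 to 33.1%) in controls. The mean difference was 11.7 percentage points, with an exact permutation p of 0.333, the smallest that 2 against 2 allows. These intervals cover counting error only.

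The share of FGFR2 was lower in SYP-3343 embryos, at 30.3% and 31.8%, against 39.2% and 38.2% in controls. There were 1.47 and 1.39 fgfr4 reads per FGFR2 read in SYP-3343 libraries and 0.833 and 0.851 in controls. Per FGFR3 read the numbers were 3.31 and 3.44 in SYP-3343 libraries and 2.097 and 2.08 in controls. fgfr4 had more reads than FGFR2 in both SYP-3343 libraries and fewer in both controls. Reads are not corrected for gene length and do not rank the receptors' transcripts.

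**Figure D3:**
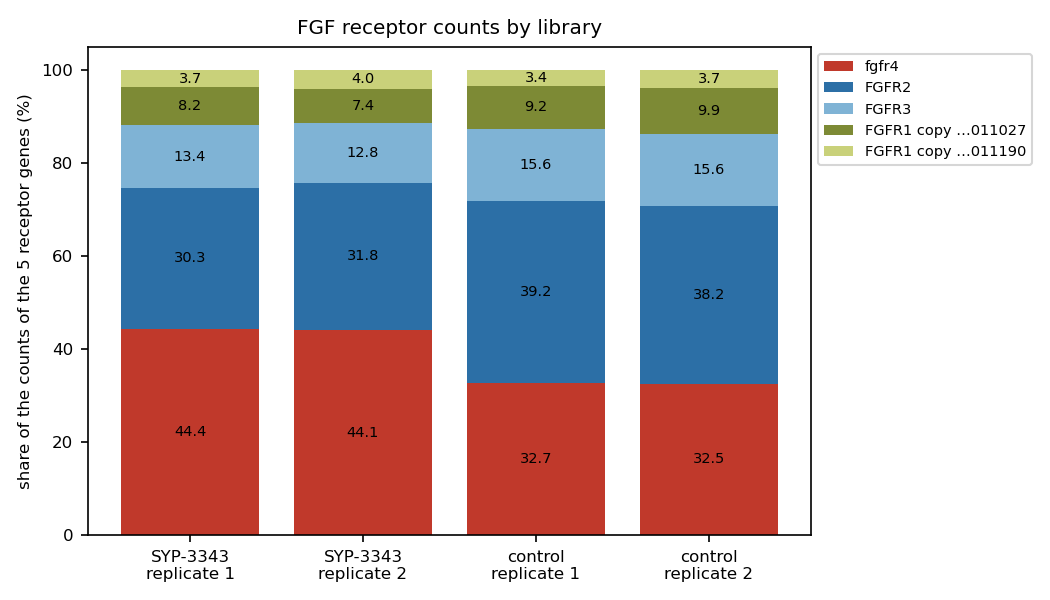
Share (%) of each receptor gene in the summed counts of the 5 FGF receptor genes, one stacked bar per library, SYP-3343 replicates first and controls after them. fgfr4 takes 44.4% and 44.1% in the SYP-3343 libraries and 32.7% and 32.5% in the controls.

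FGFRL1 proteins resemble the receptors but lack the kinase domain. FGFRL1 was at 54.6 and 58.9 CPM in SYP-3343 embryos and 61.7 and 53.1 CPM in controls (-0.01 ± 0.097, adjusted p = 0.927). fgfrl1b was at 24.1 and 26.6 CPM in SYP-3343 embryos and 23.8 and 21.5 CPM in controls (0.16 ± 0.11, adjusted p = 0.262). Neither passed the test.

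Among the feedback inhibitors DUSP6 and IL17RD rose (neither passed with library size alone). None of the 3 Sprouty and 4 Spred genes passed the test in either direction, which 31.9% of all genes tested passed. DUSP6, the phosphatase that switches off ERK, was at 199.3 and 192.8 CPM in SYP-3343 embryos, against 139.5 and 132.6 CPM in controls. It was 1.44-fold higher in SYP-3343 embryos with no overlap (log2 fold change 0.53 ± 0.090, adjusted p = 0.000113). With library size alone it missed the threshold, at 0.20 (adjusted p = 0.0802).

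IL17RD, an inhibitor that sits in the membrane with the receptors, was at 27.3 and 26.7 CPM in SYP-3343 embryos, against 22.5 and 21.2 CPM in controls, 1.24-fold higher in SYP-3343 embryos (0.31 ± 0.10, adjusted p = 0.0242). IL17RD is the less secure of the 2 calls, since its adjusted p was 0.0754 with upper-quartile factors and its log2 fold change -0.02 with library size alone. It also missed the threshold without SYP-3343 replicate 1 (adjusted p = 0.123), SYP-3343 replicate 2 (0.0906) or control replicate 2 (0.0981).

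Sprouty proteins block the path from receptors to RAS and MAPK. SPRY4 was at 49.4 and 47.7 CPM in SYP-3343 embryos and 42.9 and 42.3 CPM in controls, with no overlap, and did not pass (0.19 ± 0.092, adjusted p = 0.121). SPRY2 was at 69.2 and 65.3 CPM in SYP-3343 embryos and 64.0 and 61.3 CPM in controls (0.10 ± 0.090, adjusted p = 0.418). SPRY1, the scarcest of them by CPM, was at 10.3 and 11.3 CPM in SYP-3343 embryos and 10.6 and 11.9 CPM in controls (-0.06 ± 0.13, adjusted p = 0.769) and overlapped.

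Ratios of reads set DUSP6 against the Sprouty genes without scaling. There were 2.88 and 2.95 DUSP6 reads per SPRY2 read in SYP-3343 libraries and 2.18 and 2.16 in controls. DUSP6 made up 56.0% and 56.1% of the reads of the Sprouty genes, DUSP6 and IL17RD in SYP-3343 libraries and 49.9% and 49.2% in controls. The mean difference was 6.48 percentage points (exact permutation p = 0.333, the smallest possible).

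Spred proteins hold back RAF activation, and none of their 4 transcripts passed the test. SPRED1 was at 59.6 and 57.3 CPM in SYP-3343 embryos and 64.1 and 63.0 CPM in controls (-0.12 ± 0.090, adjusted p = 0.333). spred2a was at 21.2 and 24.1 CPM in SYP-3343 embryos and 25.8 and 26.5 CPM in controls (-0.21 ± 0.10, adjusted p = 0.134), and SPRED3 gave -0.13 ± 0.097 (adjusted p = 0.323). These 3 genes had both SYP-3343 libraries below both controls (33.7% of all genes did so). spred2a passed as lower with upper-quartile factors (-0.28, adjusted p = 0.0437) and with library size alone (-0.55, adjusted p = 0.000888). SPRED1 and SPRED3 each passed as lower in 1 of the 14 alternatives tried, and their lowest log2 fold changes were -0.45 and -0.47. With library size alone the median of all genes was -0.35. SPRED2 was at 23.5 and 23.7 CPM in SYP-3343 embryos and 19.6 and 24.5 CPM in controls (0.09 ± 0.11, adjusted p = 0.576), inside the control range.

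ETS factors of the PEA3 group are transcription factors induced by FGF signalling. ETV4 was at 37.5 and 36.7 CPM in SYP-3343 embryos and 34.1 and 32.4 CPM in controls (0.16 ± 0.095, adjusted p = 0.218). etv5a was at 35.6 and 36.2 CPM in SYP-3343 embryos and 43.4 and 37.1 CPM in controls (-0.16 ± 0.10, adjusted p = 0.227), and etv5b was at 65.6 and 71.1 CPM in SYP-3343 embryos and 66.5 and 64.9 CPM in controls (0.06 ± 0.091, adjusted p = 0.673). With TMM scaling ETV4 lay above both controls, etv5a below both, and etv5b overlapped, so that the 3 factors shared no direction there. With library size alone ETV4 (-0.17) and etv5b (-0.28) lay below 0, where the median of all genes was -0.35. etv5a was below 0 in all 14 alternatives tried. There were 5.32 and 5.26 DUSP6 reads per ETV4 read in SYP-3343 libraries and 4.10 and 4.09 in controls.

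**Figure D4:**
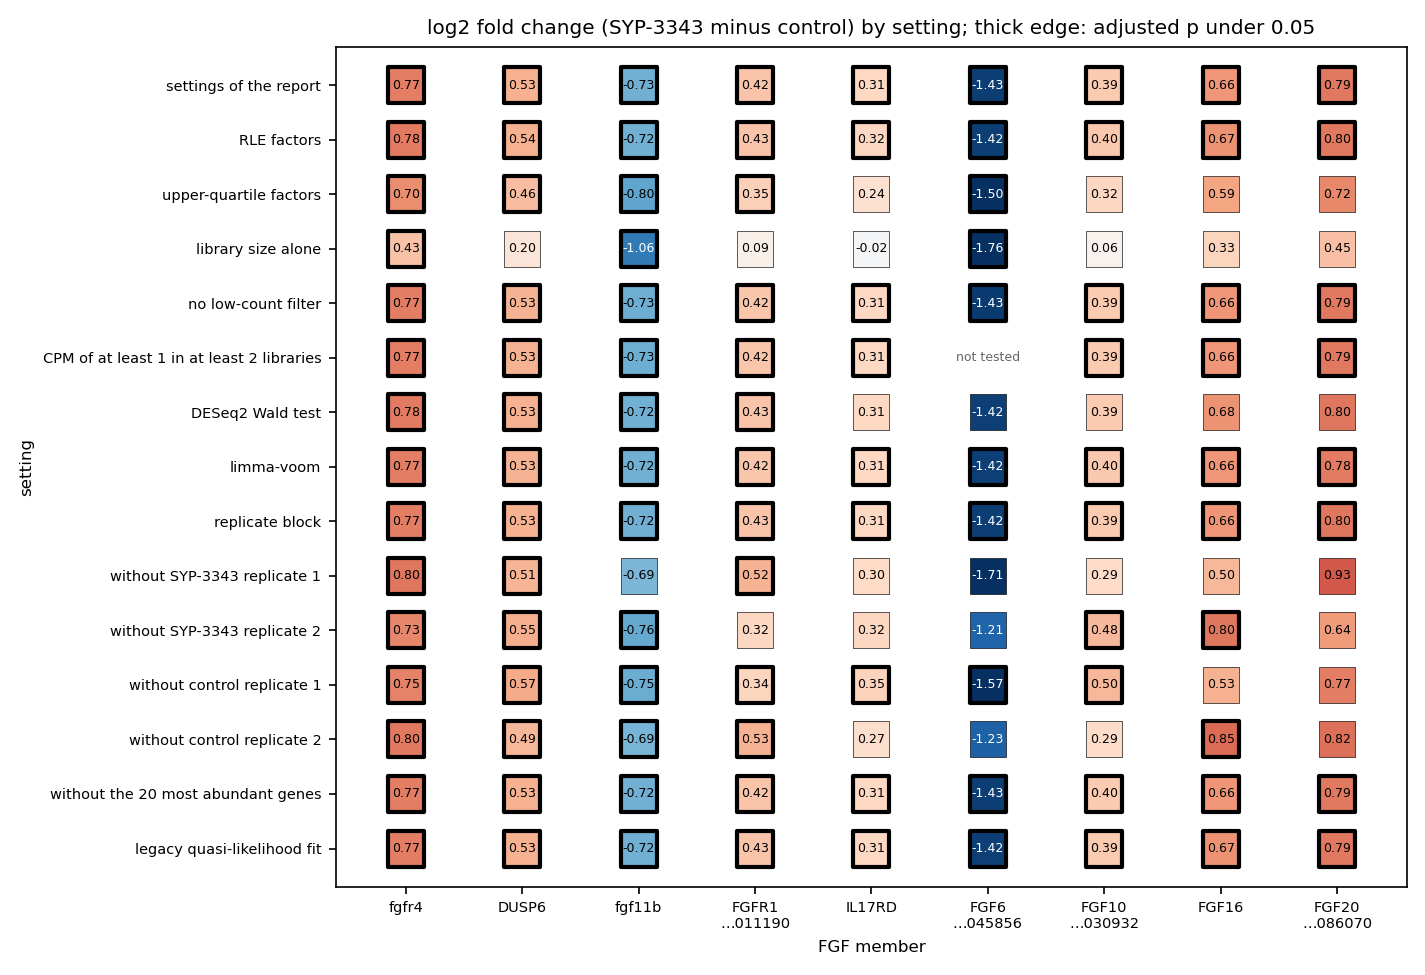
Log2 fold change (SYP-3343 minus control) of the 9 FGF genes called (columns) under the settings of the report and 14 alternatives (one line each), with a thick edge where the adjusted p was under 0.05. fgfr4 passes throughout, DUSP6 fails only with library size alone, and IL17RD turns to -0.02 there. The FGF6 copy was not tested where a CPM of at least 1 was required.

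Around these genes, the wider pathway was called about as often as all genes. The list held 73 tested genes, co-receptors, adaptors, RAS-MAPK members and other FGF-responsive genes, of which 12 rose, 14 fell and 47 did not pass (35.6% called, against 31.9% of all genes), with a median log2 fold change of -0.02. The smallest adjusted p belonged to DUSP4, a nuclear MAPK phosphatase, at 25.1 and 25.9 CPM in SYP-3343 embryos against 10.5 and 10.9 CPM in controls (1.25 ± 0.11, adjusted p = 2.00e-08). DUSP1, a related phosphatase of the stress kinases, was at 128.0 and 117.0 CPM in SYP-3343 embryos against 61.6 and 64.3 CPM in controls (0.96 ± 0.091, adjusted p = 5.63e-08).

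fgfbp2b, of a family of secreted FGF carriers, was at 53.2 and 57.0 CPM in SYP-3343 embryos against 126.5 and 98.8 CPM in controls (-1.03 ± 0.11, adjusted p = 2.02e-07). mych, a MYC family gene, was 1.598-fold higher in SYP-3343 embryos (0.68 ± 0.10, adjusted p = 3.38e-05). Other phosphatase genes of this family on the list, chosen after their values were seen, differed in sign. DUSP5 rose (0.64 ± 0.14, adjusted p = 0.00130), while DUSP2, at 4.53 and 3.84 CPM in SYP-3343 embryos and 6.59 and 5.02 CPM in controls, did not pass (-0.45 ± 0.19, adjusted p = 0.0778). Further genes chosen in that way moved both ways: SOS1 rose (0.70 ± 0.11) and SOS2 fell (-0.48 ± 0.095), both exchange factors for RAS. kras (-0.45 ± 0.11) and BRAF (-0.37 ± 0.10) fell, as did the adhesion genes FLRT1 (-0.68 ± 0.15) and both FLRT2 copies (-0.48 and -0.61).

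Immediate-early genes of the pathway scattered between SYP-3343 libraries. egr1 was at 33.5 and 19.3 CPM in SYP-3343 embryos and 40.04 and 44.8 CPM in controls and fell (-0.68 ± 0.15, adjusted p = 0.00166). ier2b was at 18.6 and 8.87 CPM in SYP-3343 embryos and 19.4 and 19.5 CPM in controls and fell narrowly (-0.50 ± 0.19, adjusted p = 0.0492), while ier2a, at 45.8 and 28.1 CPM in SYP-3343 embryos and 24.9 and 27.6 CPM in controls, rose (0.49 ± 0.15, adjusted p = 0.0133). SYP-3343 replicate 2 was the lower of its pair for all 3 genes, which were chosen after their values were seen.

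**Figure D5:**
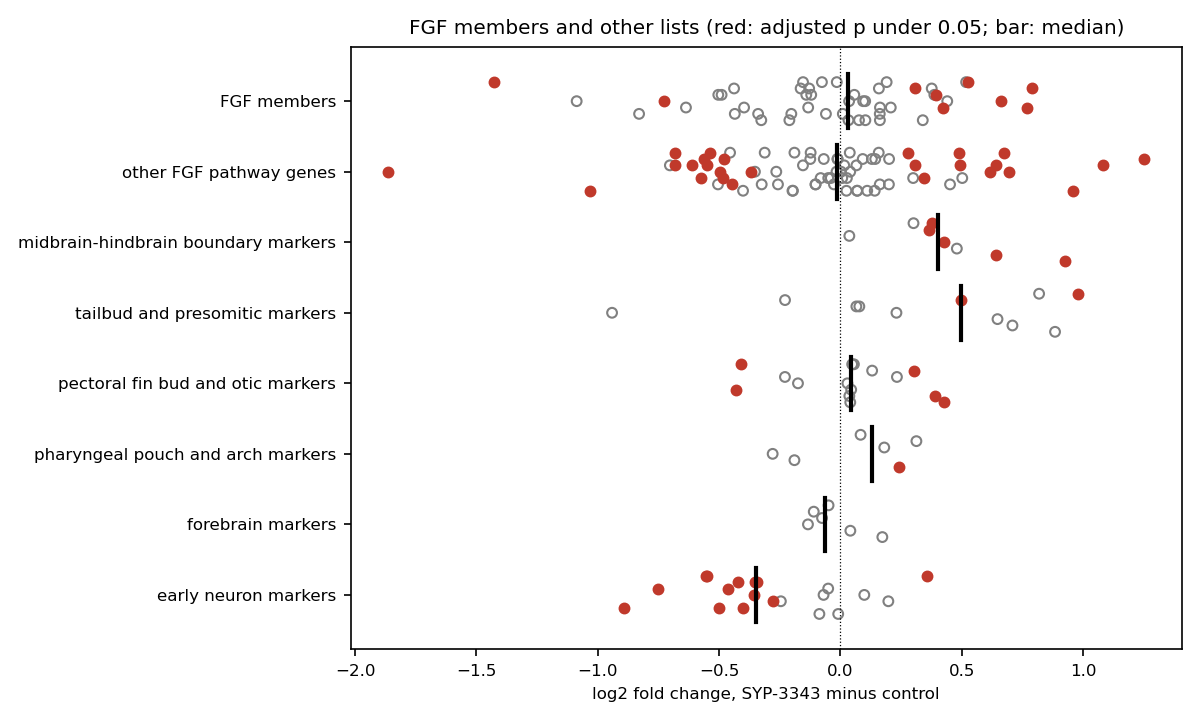
Log2 fold change (SYP-3343 minus control) of each tested gene in the FGF members and 7 other lists, with red points for an adjusted p under 0.05 and black bars for list medians. The midbrain-hindbrain boundary markers centre on 0.40 and the early neuron markers on -0.35, while the FGF members centre on 0.03; with library size alone the median of all genes is -0.35.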

How the data were processed

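Whole zebrafish embryos gave 2 SYP-3343 and 2 control libraries. Per the labels, TRIzol was used for extraction, poly-T beads for selection and a NEBNext Ultra kit for the libraries. The deposited table is one of read counts made by the authors, unnormalised and whole. The submitters' processing notes name the build GRCz11 and, giving neither their roles nor their order, DESeq2 1.14.1, featureCounts 1.6.2, HTSeq, HISAT2 and TopHat2. Annotation, strand setting and the handling of reads shared by gene copies: not given in the sources used here, so values of copies and of overlapping or antisense genes are uncertain to that extent.

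Symbols came from a table of Ensembl identifiers (23607 of 25430 identifiers had one; 2860 further models had no Ensembl identifier). The members and lists were chosen with earlier results of these data known. Of 134 symbols listed for other genes, 130 were matched, 83 of them by the symbol as written. Most of the rest matched only without their copy letter, and then every copy of that name entered the list, listed or not. Described with values were ligands, receptors and feedback genes set in a fixed list and every other member called with no overlap, and from other lists up to 5 genes with the smallest adjusted p, of which some are not reported here. Genes beyond these are said to be chosen after their values were seen.

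Counts were filtered with filterByExpr, scaled by TMM (factors 0.923 and 0.860 for SYP-3343, 1.11 and 1.14 for controls) and tested two-sided with edgeR 4.0.16 (R 4.3.3; limma 3.58.1) by the quasi-likelihood F test, with Benjamini-Hochberg adjustment over 22647 genes. The test was run first with the default of this edgeR version, the legacy fit (3660 genes higher, 3353 lower). The newer form (3770 higher, 3455 lower) was then taken, after both counts were seen, because its total equals that of the earlier analysis of these data; both forms call the same FGF members. The biological coefficient of variation was 10.1%. SE is the fold change over the square root of F. Shares have exact binomial intervals, and exact permutation tests are two-sided over libraries. Replicates differed beyond sampling noise (chi-square per gene 12.6 within SYP-3343, 14.0 within controls). Alternatives were other scalings, filters and tests (DESeq2 1.42.0, limma-voom), each library left out, a replicate block and a threshold of 0.01. Figures used Python 3.11.15 and matplotlib 3.10.9.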

Additional observations from a re-analysis of the deposited data

How the results depend on the processing

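The counts of FGF members called depend on scaling. With library size alone the median of all genes moved to -0.35 (log2), and 1 member was higher and 21 lower, beside 1405 and 9384 of all genes (13.0% of calls higher, against 52.2% with TMM); relative to that shift the member median of -0.30 is close to the median of all genes. With upper-quartile factors 3 members were higher and 5 lower, and 40.5% of all calls were higher. DESeq2 called 3 higher and 1 lower, a CPM of at least 1 left 1 lower, and a threshold of 0.01 left 3 higher and 1 lower (2039 of all genes lower). Leaving out one library gave 3 to 7 members higher and 0 to 3 lower; the lone library of a group is then assumed to vary like the other group. RLE factors, no filter, limma-voom, the 20 most abundant genes left out and the legacy fit (chosen after seeing the data) gave 7 higher and 2 lower. A replicate block also gave 7 and 2 (3763 and 3485 of all genes). Across genes, the difference between replicates 1 and 2 in one group was not correlated with that in the other (correlation -0.027). The labels do not say if same-numbered libraries share a clutch or day, and this value cannot settle it. With library size alone the wider pathway gave 5 higher and 43 lower, boundary markers 0 higher and 1 lower, and tailbud markers 1 higher and 0 lower. Early neuron markers then gave 0 higher and 17 lower, and fin and otic markers 0 higher and 8 lower. With upper-quartile factors boundary markers gave 2 higher and 0 lower, early neuron markers 0 higher and 13 lower, and fin and otic markers 1 higher and 3 lower. The cause was not tested.

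With library size alone the log2 fold change changed sign for FGF19 (-0.30), FGF12 copy ENSDARG00000113525 (-0.17), SPRED2 (-0.24), etv5b (-0.28), FGF3 (-0.23), fgf17 (-0.17), SPRY2 (-0.23), FGFR1 copy ENSDARG00000011027 (-0.30), FGFR2 (-0.33), FGF18 copy ENSDARG00000043962 (-0.12), fgfrl1b (-0.17), ETV4 (-0.17), SPRY4 (-0.14), FGFR3 (-0.26) and IL17RD (-0.024). With upper-quartile factors it did so for FGF19 (-0.036), etv5b (-0.012), FGFR1 copy ENSDARG00000011027 (-0.034) and FGFR2 (-0.060). Of these, IL17RD alone had been called. Leaving out one library changed the sign of genes not called, within ranges of -0.070 to 0.18 for FGF19, -0.053 to 0.27 for SPRED2, -0.0059 to 0.12 for etv5b, -0.25 to 1.39 for FGF10 copy ENSDARG00000100475, -0.21 to 0.44 for fgf17, -1.81 to 0.22 for FGF5, -0.46 to 0.023 for FGF18 copy ENSDARG00000088048, -0.17 to 0.49 for FGF18 copy ENSDARG00000043962, -0.042 to 0.12 for FGFR1 copy ENSDARG00000011027, -0.12 to 0.096 for FGFRL1, -0.14 to 0.032 for SPRY1, -0.068 to 0.084 for FGFR2, -0.94 to 0.35 for FGF22 and -0.20 to 0.094 for fgf2. Depth limits the endocrine genes, FGF5 and fgf9, with 36 counts or fewer in any library. FGF5 had 22 and 5 counts in SYP-3343 libraries and 23 and 26 in controls. fgf7 was nearly as scarce, with 13 and 9 counts in SYP-3343 libraries and 26 and 37 in controls.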

Other observations

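Markers of other FGF-dependent regions moved little. Of 6 pharyngeal pouch and arch markers, 1 rose (16.7%, against 16.6% of all genes). It was pou3f3b (log2 fold change 0.24 ± 0.089, adjusted p = 0.0418). The summed level of this list was 230.5 and 244.9 CPM in SYP-3343 embryos and 213.2 and 220.9 CPM in controls. None of the 6 forebrain markers passed edgeR's test, which 31.9% of all genes tested passed. None of these markers had an unadjusted p under 0.05, and their log2 fold changes ran from -0.13 to 0.17. One receptor-like gene that the naming rule leaves out, fgfr1bl, was at 6.18 and 4.84 CPM in SYP-3343 embryos and 6.55 and 5.66 CPM in controls (-0.14 ± 0.18, adjusted p = 0.600).

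Some FGF genes are neighbours in RefSeq's GRCz12tu assembly, which was used for gene order alone. FGF3, FGF4 and FGF19 follow each other with 0 protein-coding genes between, and their log2 fold changes were 0.10, -0.40 and 0.03. fgf1b and SPRY4 are likewise adjacent, at 0.34 and 0.19, and SPRY1 and fgf2, with 2 protein-coding genes between them, were at -0.06 and -0.08. None of these 7 genes was called, against 31.9% of all genes tested. Members that share a symbol with another copy were left out of this search, so their neighbours were not looked at.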
